A study of Mus musculus with 5 samples.

Results

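Conventional dendritic cells of the mouse aortic arch are described here across genes. They were selected on their own transcripts in the single-cell tables, and 76 of the 1656 cells that passed the filter met the rule. A cell was kept when at most 25% of its molecules were mitochondrial. It counted as a dendritic cell when H2-Aa, H2-Ab1, H2-Eb1 and Cd74 together reached at least 100 molecules per 10000 molecules of that cell. The summed C1qa, C1qb and C1qc, which mark macrophages, had to stay under 30 per 10000. The summed B cell genes Cd79a and Cd79b had to stay under 10, and so did the summed monocyte genes Ly6c2, Plac8, Chil3 and Ccr2. At least 2 molecules were required of Flt3, Zbtb46, Cd209a, Xcr1, Clec9a, Ccr7 and Fscn1 together. The members were chosen by these values, so none of them is a finding.

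Conventional dendritic cells are the antigen-presenting cells that take up material in a tissue, travel to the draining lymph node and prime T cells there. Their development depends on the Flt3 ligand, and the transcription factor Zbtb46 marks the lineage. The type 1 subset, which needs Irf8 and Batf3, carries the chemokine receptor Xcr1 and the dead-cell receptor Clec9a and is specialised in presenting engulfed antigen on class I molecules to CD8 T cells. The type 2 subset carries lectins such as Cd209a, Clec10a and Mgl2 and mainly presents to CD4 T cells. On maturation either subset can take on Ccr7, the receptor that guides cells to lymph nodes, and Fscn1, an actin-bundling protein of the dendrites. In the artery wall dendritic cells lie in the adventitia and, in atherosclerosis, in the inner layer of plaques.

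The cells came from the aortic arches of female mice that had received a single intraperitoneal dose of an AAV8 vector at 12 weeks of age, followed by 18 weeks of Western diet. Mice of either genotype had the same treatment. CD45-positive living cells were sorted from the digested tissue, tagged by genotype and captured together with BD Rhapsody beads. The labels name the genotypes as C57BL/6J, here the wild-type, and C57BL/6N-Saa3tm1.1(KOMP)Vlcg/MbpMmucd, which lacks Saa3, a serum amyloid A protein made by macrophages and other cells at sites of inflammation. The substrains of the genotypes therefore differ in name. How many mice went into each pool is not given in the sources used here, and the names of the 2 tables are the source for which tag belonged to which genotype. With 1 pool of each genotype there is no replicate, so no test between genotypes was made, and every interval below is a 95% interval that covers counting error only. The 4 macrophage culture samples of the series were not analysed here.

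Over all kept cells, Saa3 went against the labels by summed molecules, most of them in 2 cells of the pool labelled Saa3-/-. By the share of all kept cells it did not. Among the dendritic cells both measures went against the labels, with overlapping intervals of the shares. The pool labelled wild-type held 1079 Saa3 molecules, found in 170 of its 833 kept cells, which is 1.48 per 10000 molecules. The pool labelled Saa3-/- held 1268 molecules in 114 of 823 cells, or 2.42 per 10000, of which 799 and 325 lay in 2 cells. Without the 2 highest cells of each pool, 697 molecules remained under the wild-type label and 144 under the Saa3-/- label. Saa3 was found in 20.4% and 13.9% of all kept cells. Among the dendritic cells, Saa3 gave 11 molecules in 10 of 40 cells under the wild-type label and 19 molecules in 12 of 36 under the Saa3-/- label. These shares of cells, 25% (12.7% to 41.2%) and 33.3% (18.6% to 51.0%), stand beside 14.9% and 8.56% of the T cells of the same pools, at median depths of 4480 and 4056 molecules per T cell against 8726.5 and 8194 per dendritic cell. No dendritic cell held more than 2 Saa3 molecules in the first pool or more than 3 in the other. Whether the counted reads lie inside the deleted part of the gene is not given in the sources used here. The pools are therefore named by their labels throughout. The tables held 889 cells with 7410729 molecules and 854 cells with 5297952 molecules, 56 and 31 cells failed the mitochondrial limit, and no cell index occurred in both.

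The dendritic cells made up 40 of 833 kept cells (4.80%, exact binomial interval 3.45% to 6.48%) in the pool labelled wild-type and 36 of 823 (4.37%, 3.08% to 6.00%) in the pool labelled Saa3-/-. The intervals overlapped almost entirely. A dendritic cell held between 1815 and 24208 molecules in the first pool and between 2050 and 25416 in the other, with medians of 2972.5 and 2771 genes. The summed class II genes of the rule ran from 106 over a median of 719 to 1114 per 10000 in the pool labelled wild-type, and from 116 over 688 to 1301 in the pool labelled Saa3-/-. At the threshold on the dendritic genes, 5 and 6 members had exactly 2 molecules, with median class II sums of 637 and 433 per 10000. Just outside it, 4 and 5 cells had exactly 1 molecule, with median sums of 664 and 320. With every cell thinned to 2000 molecules, 2.70% and 2.63% of cells met the rule.

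The limits on monocyte, macrophage, B cell and class II genes also set who was counted. In the pool labelled wild-type, 18 further cells failed only the limit on monocyte genes, and all 18 held Ccr2, the receptor that brings monocytes into tissue and that some type 2 dendritic cells also carry. In the pool labelled Saa3-/- 16 cells failed only that limit, 15 of them with Ccr2. Without it, Xcr1/Clec9a and Cd209a cells, defined below, would have been more numerous, and those numbers are given beside the shares. The limit on C1q genes alone removed 32 and 12 cells. Of these, 8 and 2 would have been Cd209a cells, 5 and 0 Xcr1/Clec9a cells and 10 and 7 Ccr7/Fscn1 cells, also defined below. The class II minimum alone removed 39 and 46 cells, of which 27 and 37 would have been Ccr7/Fscn1 cells. The limit on Cd79 genes alone removed 14 and 23, of which 11 and 21 would have been Ccr7/Fscn1 cells. The number of Ccr7/Fscn1 cells therefore depends on these limits, and what the removed cells are was not tested.

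Markers of other cell types were low in most members. The macrophage list of 16 genes summed to 22.7 and 21.3 per 10000 in the dendritic cells of the pools labelled wild-type and Saa3-/-, against 247 and 251 in the macrophages of the same tables, and its highest single members stood at 61.5 and 64.5. T cell markers summed to 2.88 and 3.28 per 10000, B cell markers to 3.68 and 3.52, and monocyte markers to 8.17 and 10.4. The rule limits C1q, Cd79 and monocyte genes, and the macrophages were taken from cells that reached the C1q limit. The low macrophage, B cell and monocyte sums are therefore in part built in. Of 7 neutrophil genes 6 were found in the members labelled wild-type and 4 in those labelled Saa3-/-, with sums of 0.635 and 0.355 per 10000. Of 7 natural killer cell genes 3 were found in each pool, with sums of 0.238 and 0.296. Ly6g, a defining gene of neutrophils, was at 0 in each pool, and so were the natural killer genes Ncr1 and Klrb1c. Smooth muscle markers summed to 7.19 and 14.2 per 10000, and 1 cell of the pool labelled Saa3-/- with 194 per 10000 stood apart. Another member, in the pool labelled wild-type, had B cell markers at 82.2 per 10000. Removing every member with 3 or more molecules of T cell, fibroblast or smooth muscle genes left 1.20% and 1.09% of the kept cells as dendritic cells, so most members held a few molecules of another lineage. How many of those molecules are free RNA was not tested.

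Flt3, the receptor for the growth factor of dendritic cells, was found in 24 of 40 members of the pool labelled wild-type (62 molecules) and in 20 of 36 of the pool labelled Saa3-/- (54 molecules). In T cells it was found in 2.49% and 1.56% of cells. Zbtb46 was found in 9 of 40 and 14 of 36 members, and in 6.47% and 1.95% of T cells. Flt3 and Zbtb46 are genes of the rule, so their excess over T cells is built in. The T cells were also shallower, with median depths of 4480 and 4056 molecules against 8726.5 and 8194 in the members. Wdfy4, needed for cross-presentation, and Naaa, a lysosomal amidase, were not part of the rule. They are among the genes chosen as markers with results of these data known, so their levels describe the members and are no independent check. They were spread very unevenly over the members, as described with the subsets.

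The members were split by a second rule on raw molecules. A cell with at least 2 molecules of Xcr1 and Clec9a together, more than of Cd209a and more than of Ccr7 and Fscn1, was called an Xcr1/Clec9a cell, and the other groups were formed in the same way. Xcr1 lies on chromosome 9 (123852315 to 123862029, minus strand), Clec9a on chromosome 6 (129408862 to 129424763, plus strand) and Cd209a on chromosome 8 (3743397 to 3748984, minus strand) of GRCm38, and all of them code for surface receptors. The windows from 250 bases before to 50 bases after their start sites are shown because these genes split the members. The sequences are RefSeq's for GRCm38.p6, each printed in the sense of its gene.
Xcr1 at chr9:123861980-123862279, minus strand: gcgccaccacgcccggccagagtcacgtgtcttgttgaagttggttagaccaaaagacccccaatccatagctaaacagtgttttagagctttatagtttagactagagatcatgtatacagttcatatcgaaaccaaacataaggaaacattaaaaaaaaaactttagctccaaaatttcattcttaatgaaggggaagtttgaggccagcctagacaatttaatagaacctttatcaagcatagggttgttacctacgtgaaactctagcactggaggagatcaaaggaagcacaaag
Clec9a at chr6:129408612-129408911, plus strand: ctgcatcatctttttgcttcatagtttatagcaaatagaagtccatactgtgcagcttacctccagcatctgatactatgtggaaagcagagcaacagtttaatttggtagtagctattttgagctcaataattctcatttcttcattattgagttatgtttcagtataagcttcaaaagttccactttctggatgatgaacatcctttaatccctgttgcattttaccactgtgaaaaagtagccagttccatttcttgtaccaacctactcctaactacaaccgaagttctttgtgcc
Cd209a at chr8:3748935-3749234, minus strand: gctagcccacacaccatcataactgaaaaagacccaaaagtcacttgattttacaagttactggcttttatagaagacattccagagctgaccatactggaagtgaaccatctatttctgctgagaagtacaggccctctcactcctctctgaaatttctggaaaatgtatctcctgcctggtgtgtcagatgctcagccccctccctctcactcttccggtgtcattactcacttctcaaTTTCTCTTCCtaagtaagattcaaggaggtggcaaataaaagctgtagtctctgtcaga
The capitals mark the only match, on either strand, to any of the motifs searched. The first was GGAA followed after any 2 bases by GAAA, a composite element of ETS and interferon regulatory factors. The others were TGANTCA, an AP-1 element, and GAAA followed after any 2 bases by GAAA, the core of the interferon-stimulated response element. A stretch can match more than 1 of them. The match in the Cd209a window is the composite element read on the opposite strand. That motif occurred in 2.72% of all 32851 such windows of 300 bases, TGANTCA in 7.81% and the interferon-stimulated element in 3.44%. Among the 22 windows of 19 genes on the list of type 1 markers the motifs occurred in 0, 2 and 3 windows, in the same order. Among the 22 windows of 18 type 2 genes they occurred in 3, 1 and 1. A match is a description of letters, and its absence says only that these letters are not in the window.

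The Xcr1/Clec9a and Cd209a cells hardly overlapped in the genes that define them. No Xcr1/Clec9a cell of the pool labelled wild-type held a Cd209a molecule, and the highest value in the other pool was 1. In the Cd209a cells the highest number of Xcr1 and Clec9a molecules was 0 in the pool labelled wild-type and 1 in the pool labelled Saa3-/-. Clec9a was found in 24 and Xcr1 in 13 of the 40 members of the first pool, and all 13 Xcr1-positive cells also held Clec9a. In the pool labelled Saa3-/- Clec9a was found in 15 and Xcr1 in 10 of 36 members, with both genes in 9. Ccr7 or Fscn1 occurred together with Cd209a in 2 of 40 and 7 of 36 members, and together with Xcr1 or Clec9a in 3 and 2. Because these genes chose the groups, the separation is in part built in.

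**Figure D1:**
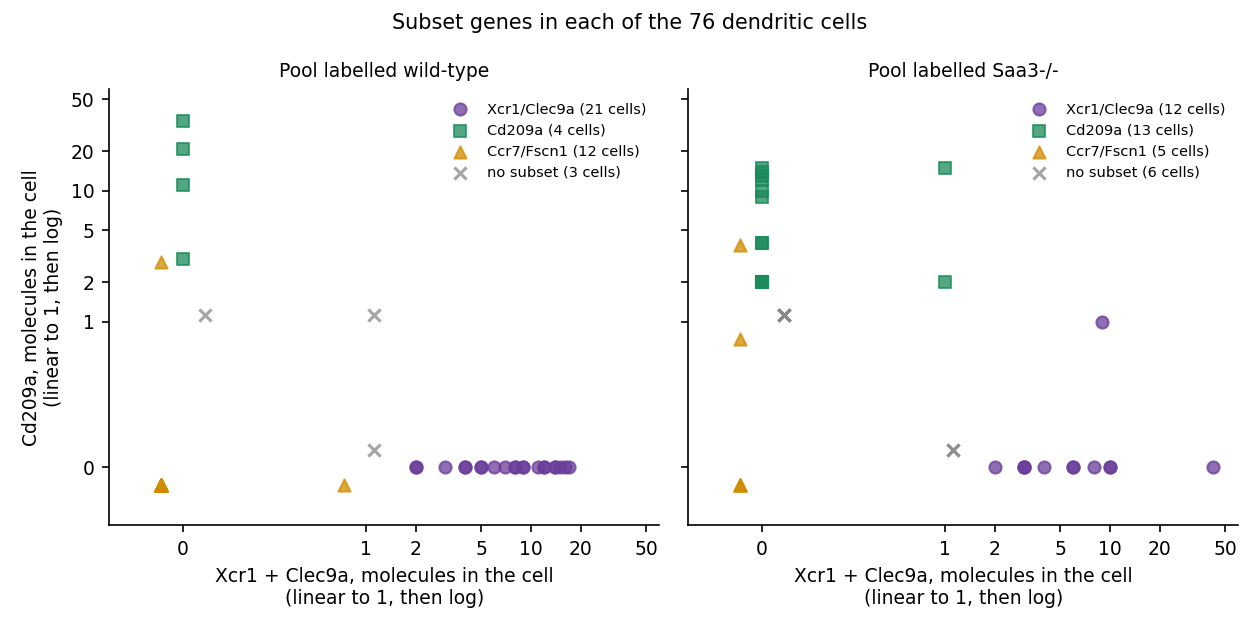
Molecules of Xcr1 and Clec9a together (x axis) against molecules of Cd209a (y axis) in each dendritic cell, on axes that are linear up to 1 and logarithmic above, with 1 panel per pool. Each point is a cell coloured by its subset, and points of the Ccr7/Fscn1 and unassigned cells are moved slightly to stay visible; cells with many molecules of 1 axis lie at 0 or 1 on the other.

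Subset make-up differed between the pools more than the total share did. Of the 40 members in the pool labelled wild-type 21 were Xcr1/Clec9a cells (52.5%, 36.1% to 68.5%), and of the 36 members in the pool labelled Saa3-/- 12 were (33.3%, 18.6% to 51.0%). Cd209a cells numbered 4 (10.0%, 2.79% to 23.7%) and 13 (36.1%, 20.8% to 53.8%). Their intervals overlapped by a narrow margin. Ccr7/Fscn1 cells numbered 12 (30.0%, 16.6% to 46.5%) and 5 (13.9%, 4.67% to 29.5%), and 3 and 6 cells fell in no subset. As shares of all kept cells, Xcr1/Clec9a cells were 2.52% and 1.46%, Cd209a cells 0.480% and 1.58% and Ccr7/Fscn1 cells 1.44% and 0.608%.

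Other settings moved these shares. Without the limit on monocyte genes, chosen after seeing the data, Xcr1/Clec9a cells were 27 of 58 (46.6%) against 15 of 52 (28.8%), and Cd209a cells were 11 of 58 (19%) against 23 of 52 (44.2%). Without the limit on C1q genes, also added after seeing the data, Xcr1/Clec9a cells were 26 of 72 (36.1%) against 12 of 48 (25%), and Cd209a cells 12 of 72 (16.7%) against 15 of 48 (31.2%). When every member was thinned to 2000 molecules, Xcr1/Clec9a cells were 17.9% against 19.4% and Cd209a cells 10.3% against 22.2%. The order of the pools for Cd209a cells was the same under each of these settings, and that for Xcr1/Clec9a cells turned with thinning. Median depths were 9407 and 8498.5 molecules in Xcr1/Clec9a cells, 7753.5 and 7069 in Cd209a cells, and 6216 and 9516 in Ccr7/Fscn1 cells. With 1 pool per genotype, genotype and pool cannot be told apart.

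**Figure D2:**
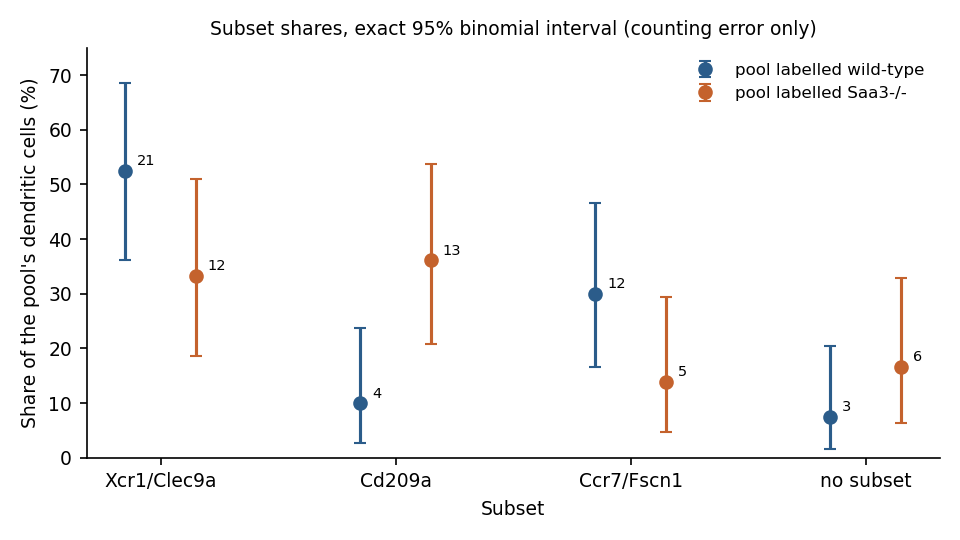
Share of each subset among the dendritic cells of each pool (y axis, percent) with exact 95% binomial intervals and cell numbers beside the points. The share of Cd209a cells is 10.0% in the pool labelled wild-type and 36.1% in the pool labelled Saa3-/-, and the shares of Xcr1/Clec9a and Ccr7/Fscn1 cells lie in the opposite order.

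The Xcr1/Clec9a cells carried the further genes of type 1 dendritic cells in both pools. Wdfy4 was found in 21 of 21 such cells of the pool labelled wild-type, with 2 molecules in the lowest cell, a median of 12 and 29 in the highest. All 12 such cells of the pool labelled Saa3-/- held it too, with 1, 8 and 26 molecules. Summed over cells, Wdfy4 stood at 11.2 and 9.13 per 10000 there, at 2.65 and 1.80 in the Cd209a cells and at 0.196 and 0.0595 in T cells. Naaa was found in 20 of 21 and 12 of 12 Xcr1/Clec9a cells, at 11.7 and 13.2 per 10000, and stood at 5.59 and 1.72 in the Cd209a cells and 0.161 and 0.17 in T cells. In each pool both genes were higher in the Xcr1/Clec9a than in the Cd209a cells.

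Irf8, the transcription factor that type 1 dendritic cells need, gave 90 molecules in 17 of 21 Xcr1/Clec9a cells of the pool labelled wild-type and 54 in 9 of 12 of the pool labelled Saa3-/-. In Cd209a cells it gave 0 molecules in 4 cells, where the sum allows at most 0.883 per 10000, and 4 molecules in 13 cells. Against that limit, which stands for 3 molecules, its level of 3.93 per 10000 in the first pool was at least 4.45-fold higher in Xcr1/Clec9a cells, and in the other pool the levels were 4.65 and 0.343. Irf8 was not confined to Xcr1/Clec9a cells. Single Ccr7/Fscn1 cells held up to 13 Irf8 molecules in the pool labelled wild-type and up to 4 in the other. The cell with 13 had a low class II sum of 106 per 10000 and is described below as led by other features. The next highest of that pool held 10. Cadm1, an adhesion molecule of type 1 cells, stood at 6.37 and 4.65 per 10000 in the Xcr1/Clec9a cells and at 0.589 and 0.0858 in the Cd209a cells. In the pool labelled Saa3-/- 1 cell gave 55.6% of its molecules. Itgae, the CD103 integrin chain, was found in 18 of 21 and 8 of 12 Xcr1/Clec9a cells. Its level was 2.27 against 1.18 in the pool labelled wild-type, a log2 ratio of 0.79 with an interval from -0.50 to 2.87, and 5.51 against 0 in the pool labelled Saa3-/-, at least 21.4-fold higher. Batf3, the partner of Irf8, was sparse, with 15 molecules in 7 cells and 10 molecules in 6, and Tlr3, a sensor of double-stranded RNA, gave 5 and 11 molecules in Xcr1/Clec9a cells and 0 in Cd209a and Ccr7/Fscn1 cells of either pool.

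Further genes were higher in the Xcr1/Clec9a cells of both pools. Ppt1, a lysosomal thioesterase, stood at 13.5 per 10000 in Xcr1/Clec9a cells against 1.18 in Cd209a cells of the pool labelled wild-type, and at 15.8 against 1.12 in the pool labelled Saa3-/-. Those are log2 ratios of 3.35 (2.15 to 5.40) and 3.78 (3.02 to 4.77). Btla, an inhibitory receptor, stood at 5.1 against 0.294 and at 2.84 against 0.257. Ifi205, an interferon-activated gene of the p200 family, gave 113 molecules against 0 in the pool labelled wild-type, at least 5.58-fold higher, and 27 against 1 in the other. Cd36, a scavenger receptor that takes up oxidised LDL and dead cells, gave 83 molecules against 0, at least 4.10-fold higher, and 42 against 3, a log2 ratio of 3.61 (2.17 to 6.15). Rab7b and Sept3 were at 0 in the Cd209a cells of the pool labelled wild-type and were at least 4.35-fold and 5.14-fold higher in its Xcr1/Clec9a cells. Tbc1d8 stood at 4.40 against 0.294 in the pool labelled wild-type and at 2.67 against 0.172 in the other. Gpr141b was at 0 in the Cd209a cells of either pool and at least 2.22-fold and 6.69-fold higher in the Xcr1/Clec9a cells. P2ry14, at 0 in the Cd209a cells of the first pool, was at least 1.73-fold higher there, a bound under 2-fold, and stood at 1.89 against 0.0858 in the other. Id2, a transcriptional regulator that dendritic cells of either subset express, stood at 2.40 against 2.65 and at 5.77 against 6.86.

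The Cd209a cells carried type 2 genes together with some of the genes on the macrophage list. Clec10a, a galactose lectin of type 2 cells, was found in 4 of 4 Cd209a cells of the pool labelled wild-type and 9 of 13 of the pool labelled Saa3-/-, at 9.71 and 3.69 per 10000. In Xcr1/Clec9a cells it gave 1 molecule in the first pool, a log2 ratio of -7.24, and 0 in the other, where the Cd209a cells were at least 14.3-fold higher. Itgam, the CD11b integrin chain, was found in 4 of 4 and 11 of 13 Cd209a cells at 4.71 and 3.52 per 10000, against 0.174 and 0 in Xcr1/Clec9a cells. Mgl2, another galactose lectin, stood at 12.7 and 17.0 against 0.523 and 1.55, but a single cell of the pool labelled Saa3-/- gave 127 of its 198 molecules. The transcription factor Zeb2 stood at 4.71 and 5.84 against 0.523 and 0.258. Irf4, a factor of type 2 cells, was near the limit of detection, with 0 and 6 molecules in Cd209a cells.

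Cd209a itself gave 11, 34, 21 and 3 molecules in the 4 cells of the pool labelled wild-type, and 2 to 15 molecules, with a median of 9, in the 13 cells of the other pool. Flt3 was found in 3 of the 4 but in only 3 of the 13, with 1 molecule in each, and Zbtb46 in 1 of 4 and 4 of 13. Csf1r, the macrophage growth factor receptor, stood at 7.36 and 4.72 per 10000 in these cells against 0.698 and 0.861 in Xcr1/Clec9a cells. Mrc1, the mannose receptor, stood at 5.00 and 4.38 against 0.218 and 0.172, and Fcer1g, the signalling chain of Fc receptors, at 27.4 and 15.3 against 4.14 and 2.84. The macrophage markers as a list summed to 26.8 and 29.8 per 10000 in the Cd209a cells and to 23.1 and 16.8 in the Xcr1/Clec9a cells. Of its 6 genes measured in both pools, Csf1r and Mrc1 were past 2-fold higher in Cd209a cells in both. Apoe, the lipid carrier, went the other way in the pool labelled wild-type, at 4.12 against 8.98 per 10000 in Xcr1/Clec9a cells, and C1qb stood at 2.65 against 2.97 there. Of the 3 monocyte genes measured in both pools, 0 were past 2-fold in both. How far these genes in the Cd209a cells come from monocyte-derived cells was not tested.

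Further genes were higher in the Cd209a cells of both pools. S100a4, a calcium-binding protein, stood at 9.12 against 0.611 per 10000 in the pool labelled wild-type and at 13.1 against 0.517 in the pool labelled Saa3-/-. Cybb, the membrane subunit of the NADPH oxidase, stood at 8.53 against 0.698 and at 4.03 against 0.172. The chemokine Ccl6 stood at 7.94 against 1.18 and at 5.49 against 0.517. Tmem176a and Tmem176b, a neighbouring pair of membrane channels, stood at 10.9 and 10.6 in the Cd209a cells of the pool labelled wild-type and at 3.78 and 4.72 in those of the other. Cd300a, an inhibitory receptor, and S100a6 completed the set with 6.47 and 10.6 per 10000 in the first pool and 3.00 and 16.0 in the second.

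Across all genes with enough molecules, calling a gene past 2-fold, the comparison of Xcr1/Clec9a with Cd209a cells gave 536 genes higher and 291 lower of 2452 in the pool labelled wild-type (21.9% and 11.9%, 33.7% in all). In the pool labelled Saa3-/- it gave 217 higher and 307 lower of 2147 (10.1% and 14.3%, 24.4% in all). Of the 1874 genes measured in both pools, 100 were higher in both (5.34%) and 80 lower in both (4.27%), together 9.61%, and 19 were past 2-fold in opposite ways (1.01%). Only 4 Cd209a cells with few molecules stand behind the first pool, where 169 of the genes were at 0 in a subset. With such genes held at their bound, 398 were higher in that pool and 81 in both, and the 80 lower in both stayed 80.

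Read against those shares, the type 1 list stood apart. Of its 17 measured genes 15 were past 2-fold higher in the Xcr1/Clec9a cells of each pool, with a median log2 ratio of 3.35 in both pools, or 2.15 and 3.26 with genes at 0 held at their bound. The type 2 list had median ratios of -3.27 over 12 genes and -2.40 over 11, and 7 of 11 genes were lower in both (Cd209a, Clec10a, Csf1r, Ifitm2, Itgam, Mgl2 and Zeb2). Both lists hold genes of the rule, and both were drawn up with results of these data known, so the counts describe the groups and support nothing. Of the inflammatory list 4 of 6 genes were lower in both pools, namely Ccl6, Ccl9, Nfkbia and Nlrp3. Of the stress genes that tissue digestion is known to induce 3 of 16 were lower in both, namely Dusp1, Hspa1a and Hspa1b. Of the antigen-processing genes Tap1, the peptide transporter of the class I pathway, was the only one of 12 higher in both, at 3.49 against 0.589 and 1.81 against 0.686 per 10000. Ctss, the protease that trims the class II chaperone, was the only one of 13 class II genes lower in both, at 13.7 against 32.1 and 10.3 against 24.5.

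**Figure D3:**
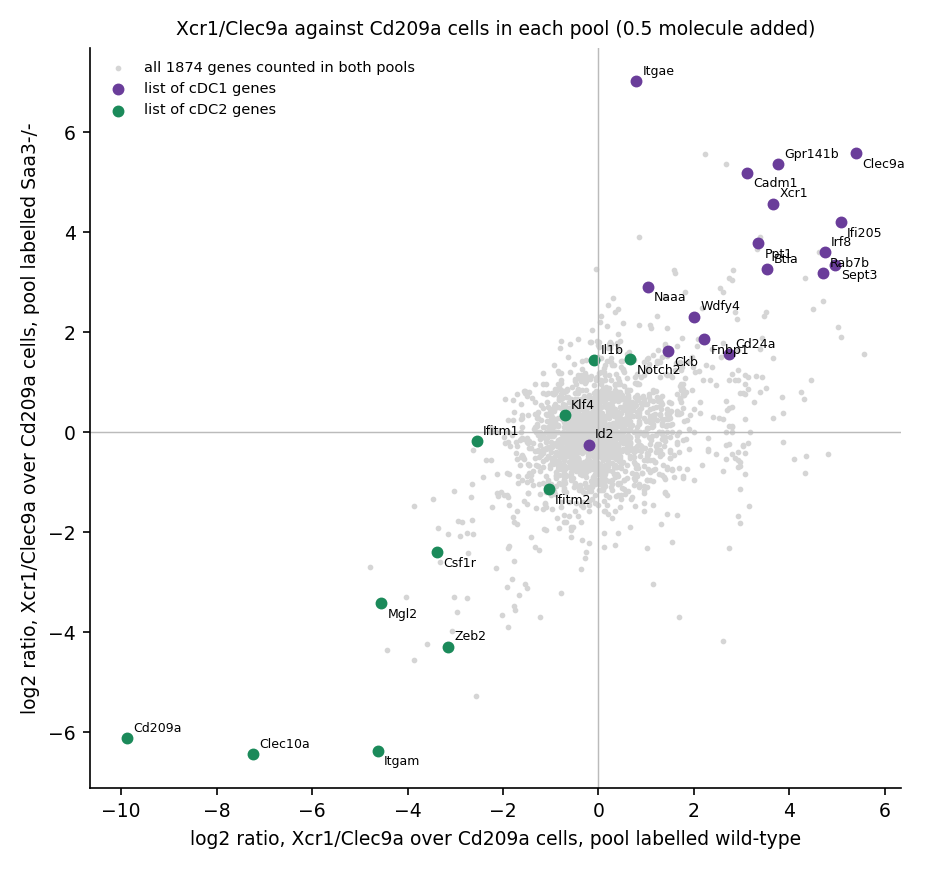
Log2 ratio of Xcr1/Clec9a over Cd209a cells for 1874 genes in the pool labelled wild-type (x axis) and the pool labelled Saa3-/- (y axis), computed with 0.5 molecule added; type 1 genes are purple, type 2 genes green and all others grey. Of the purple genes 15 lie past 2-fold on the positive side in both pools, and 7 green genes lie past 2-fold on the negative side.

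The Ccr7/Fscn1 cells carried the chemokine and ligand genes of matured dendritic cells, unevenly from cell to cell. In the pool labelled wild-type 2 of its 12 cells were led by other features, the cell with B cell markers at 82.2 per 10000 and another with the low class II sum of 106, and 10 cells remained without them. Ccr7 gave 158 molecules in 11 of 12 cells under the wild-type label and 59 in 5 of 5 under the Saa3-/- label, as the subset rule requires of Ccr7 and Fscn1 together. Fscn1 gave 79 molecules in the first pool, of which 51 lay in 1 cell, and 1 molecule in the other. Both genes were found together in 4 of 40 and 1 of 36 members. Ccl22, a chemokine for T cells, gave 50 molecules in 7 cells and 36 in 3, at 5.08 and 8.27 per 10000, against 0.262 and 0.689 in Xcr1/Clec9a cells and 0.883 and 1.80 in Cd209a cells. Cd274, which codes for PD-L1, gave 30 molecules in 7 cells and 28 in 4, at 3.05 and 6.43 per 10000, against 0.350 and 0 in Xcr1/Clec9a cells.

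Other maturation genes were found in part of these cells. Tbc1d4 gave 129 molecules in 9 of 12 cells and 112 in 4 of 5, and stood at 13.1 and 25.7 per 10000. The fatty acid binding protein Fabp5 gave 154 molecules, 96 of them in 1 cell, and 43. Il4i1, an amino acid oxidase, gave 26 molecules in 6 cells of the pool labelled wild-type and 2 in the other, and the interleukin subunit gene Il12b gave 8 molecules in 2 cells of the first pool. Cd86 and Cd80, the ligands of CD28, stood at 2.74 and 2.54 per 10000 in the pool labelled wild-type and at 8.50 and 5.51 in the pool labelled Saa3-/-. The costimulation list in these cells had a median log2 ratio between pools of 1.10 over 6 genes, 4 of them higher in the pool labelled Saa3-/-, but 12 and 5 cells stand behind it. Type 1 genes summed to 20.3 and 17.0 per 10000 in the Ccr7/Fscn1 cells, near the 18.5 and 18.5 of the Cd209a cells, and type 2 genes to 39.6 and 42.7, between the other subsets.

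Class II genes were present in all subsets, as the rule required of every member. The class II list summed to 769 and 734 per 10000 in the Xcr1/Clec9a cells of the pools labelled wild-type and Saa3-/-, to 891 and 701 in the Cd209a cells and to 668 and 816 in the Ccr7/Fscn1 cells. Macrophages of the same tables stood at 426 and 432. Most of these sums are genes of the rule, so the difference from macrophages is not a finding. The type 1 list summed to 101 (96.5 to 105) and 99.3 (93.7 to 105) in Xcr1/Clec9a cells, with 22 and 21 in macrophages and 18.0 and 16.9 in monocytes. Cell by cell it ran from 37.9 over a median of 97.9 to 199 in the first pool and from 56.2 over 104 to 158 in the other. The type 2 list summed to 107 (96.7 to 119) and 68.7 (64.1 to 73.7) in Cd209a cells. It stood at 62.8 and 57.7 in macrophages and at 64.2 and 59.4 in monocytes. The type 2 list separated Cd209a cells from macrophages and monocytes less than the type 1 list did Xcr1/Clec9a cells. Both lists hold the genes that chose these groups, so part of each separation is built in. Cd209a alone gave 20.3 of the 107 and 8.92 of the 68.7 in Cd209a cells. In Xcr1/Clec9a cells Clec9a gave 6.15 of the 101 and 6.12 of the 99.3, and Xcr1 gave 1.83 and 3.01. Class I genes and the loading complex stood at 160 and 142 in macrophages, above each dendritic subset of the same pool.

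**Figure D4:**
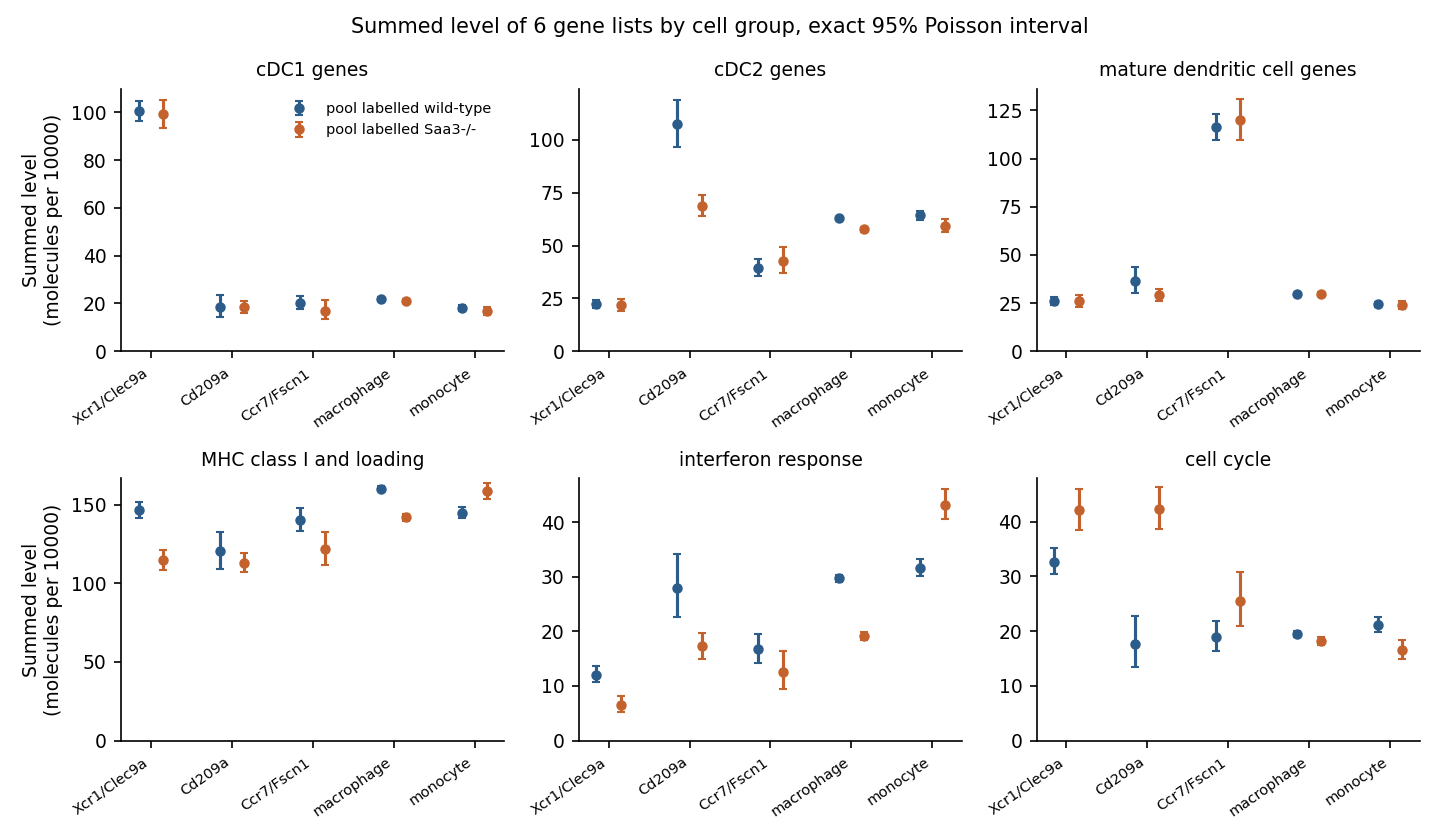
Summed level of gene lists (y axis, molecules per 10000) in Xcr1/Clec9a, Cd209a and Ccr7/Fscn1 cells, macrophages and monocytes of each pool, with Poisson 95% intervals that cover counting error. Type 1 genes stand at 101 and 99.3 in Xcr1/Clec9a cells and between 16.9 and 22 in the other populations, and class I genes at 146 and 115 in the Xcr1/Clec9a cells of the pools labelled wild-type and Saa3-/-.

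Between the pools, summed over all dendritic cells, 66 of 2613 genes with at least 50 molecules were past 2-fold higher in the pool labelled Saa3-/- (2.53%) and 92 past 2-fold lower (3.52%), 6.05% together. Because the subsets made up different shares of the members, a gene of one subset can differ here without differing within it, so values within subsets, or with each subset weighing the same, are given beside the genes named. For gene lists the minimum was 20 molecules, which gave 293 of 5321 genes higher (5.51%) and 318 lower (5.98%), with a median log2 ratio over all genes of 0.02. The type 1 list had a median of -0.54 over 20 genes, 6 of them past 2-fold lower and 0 higher. Within Xcr1/Clec9a cells its median was -0.09 over 18 genes. The type 2 list had a median of 0.23 over 18 genes in all members and -1.13 over 13 genes within Cd209a cells, where 11 were lower in the pool labelled Saa3-/-.

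Class I genes mostly had lower levels in the pool labelled Saa3-/- over all members, by less than 2-fold. The median log2 ratio was -0.41 over 19 genes in all members, with 17 lower and 2 higher, beside 2591 lower of all 5321 genes. Past 2-fold lower were 4 of the 19, beside 5.98% of all genes. Within Xcr1/Clec9a cells it was -0.46 over 16 genes, 15 of them lower, and within Cd209a cells it was 0.45 over 9 genes; the difference between the subsets was not tested. In Xcr1/Clec9a cells the list summed to 146 (142 to 151) and 115 (109 to 121) per 10000, and cell by cell to 102, 148 and 191 (lowest, median and highest) and 66.1, 125 and 169. The cells of the pools overlapped. Tap1 stood at 3.49 and 1.81 per 10000 there, Psme2, a proteasome activator subunit, at 1.48 and 0.689 and Nlrc5, the transactivator of class I genes, at 1.00 and 0.603. B2m, the light chain, stood at 44.2 and 37.6. Macrophages summed to 160 and 142 and T cells to 133 and 107 in the same order. Monocytes, at 145 and 159, had the opposite one, and B cells stood at 122 and 123.

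Interferon-response genes summed to less in the Xcr1/Clec9a cells of the pool labelled Saa3-/-, but the median cell did not differ in that direction. Irf7, a transcription factor of the interferon response, gave 46 molecules in 12 cells of the pool labelled wild-type and 11 in 8 of the other, a log2 ratio of -1.85 (-3.00 to -0.93), with 35 against 3 molecules in Xcr1/Clec9a cells. In T cells it was found in 16.9% and 17.5% of cells. Ifi205 gave 115 molecules against 32, a log2 ratio of -1.67 (-2.30 to -1.11). Its level in Xcr1/Clec9a cells was 4.93 against 2.33 per 10000, a log2 ratio of -1.06. The list's median was -0.70 over 8 genes, with 7 lower, and -0.86 over 4 genes in Xcr1/Clec9a cells, all 4 lower, where it summed to 12.1 against 6.55 per 10000. Cell by cell the sum in Xcr1/Clec9a cells ran from 1.39 over a median of 7.89 to 52.6 and from 0 over 8.16 to 17.4. The difference in the sum is not seen in that median. In macrophages the list summed to 29.7 and 19.1 per 10000 in the same order of pools, with median cells at 22.14 and 15.01. T cells, at 10.99 and 9.47, also had the lower sum under the Saa3-/- label. Monocytes, at 31.7 and 43.3, and B cells, at 11.1 and 12.9, had the opposite order. A lower sum was therefore not confined to the dendritic cells.

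The other genes lower in the pool labelled Saa3-/- included several with uneven cells. Gda, guanine deaminase, gave 107 molecules in 17 cells and 17 in 8, a log2 ratio of -2.46 (-3.32 to -1.75). Of the 107 molecules 57 came from 2 of the 4 Cd209a cells. Nampt, which makes a precursor of NAD, gave 131 against 38 molecules, a log2 ratio of -1.61 (-2.18 to -1.09). Serpinb9, an inhibitor of granzyme B, gave 42 against 9 molecules, a log2 ratio of -2.0. The adaptor Fyb gave 96 against 27, and the ubiquitin ligase Cblb 78 against 22. Uimc1, Baz2a and Zdhhc23 completed the 10 with log2 ratios of -1.95, -1.79 and -1.65. With each subset weighing the same, Serpinb9 stood at -2.14, Nampt at -1.70, Fyb at -1.83, Cblb at -1.39, Uimc1 at -2.44, Baz2a at -2.68 and Zdhhc23 at -1.31. These were past 2-fold, and of the 10 genes Ifi205 was not, at -0.92. Serpinb9, Uimc1, Baz2a and Zdhhc23 gave 0 molecules in the 5 Ccr7/Fscn1 cells of the pool labelled Saa3-/-. In the 4 Cd209a cells of the other pool they gave 0 to 2 each. Their ratios with equal subsets therefore rest on few molecules. Lipid-handling genes had a median of -0.15 over 17 genes in all members and -0.55 over 14 in Xcr1/Clec9a cells. There Ctsb, a lysosomal protease, gave 355 molecules against 61, but 221 of the 355 lay in 1 cell, and Gpnmb, a lysosomal membrane glycoprotein, gave 69 against 3, of which 61 lay in 1 cell.

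Mgl2 led the genes that were higher under the Saa3-/- label by molecule number. It gave 84 molecules in 10 cells and 260 in 16, a log2 ratio of 1.79 (1.43 to 2.17). It is a type 2 gene, 13 against 4 Cd209a cells stand behind it, and within Cd209a cells the ratio was 0.41. A single Cd209a cell of the pool labelled Saa3-/- gave 127 of the 260 molecules, so both ratios lean on that cell. That cell was also the deepest member, with 25416 molecules and macrophage markers at 64.5 per 10000. Dab2, a clathrin adaptor, gave 37 against 114 molecules, a log2 ratio of 1.77 (1.24 to 2.36) that was 0.99 within Cd209a cells. Hspd1, a mitochondrial chaperone, gave 32 molecules in 21 cells and 81 in 23, and Lman2, a cargo receptor of the secretory pathway, 14 in 8 cells and 38 in 22. With each subset weighing the same the ratio of Lman2 was 1.77 and that of Hspd1 0.89, under 2-fold. Of the 81 Hspd1 molecules 35 came from Cd209a cells. Nme1, a nucleoside diphosphate kinase, gave 19 against 55 molecules over all members but stood at 0.523 against 0.345 per 10000 in Xcr1/Clec9a cells, and its ratio was 0.85 with equal subsets. Lpp, an adhesion protein, gave 19 against 58, with ratios of 1.53 with equal subsets and 0.96 with each cell weighing the same. Tnip3, Emilin2 and Cped1 had log2 ratios of 1.53, 1.51 and 2.15, with 41.2% of the Cped1 molecules in 1 cell. With each subset weighing the same Emilin2 stood at 0.75 and Cped1 at 0.64, and with each cell weighing the same Tnip3 stood at 0.86, all under 2-fold.

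**Figure D5:**
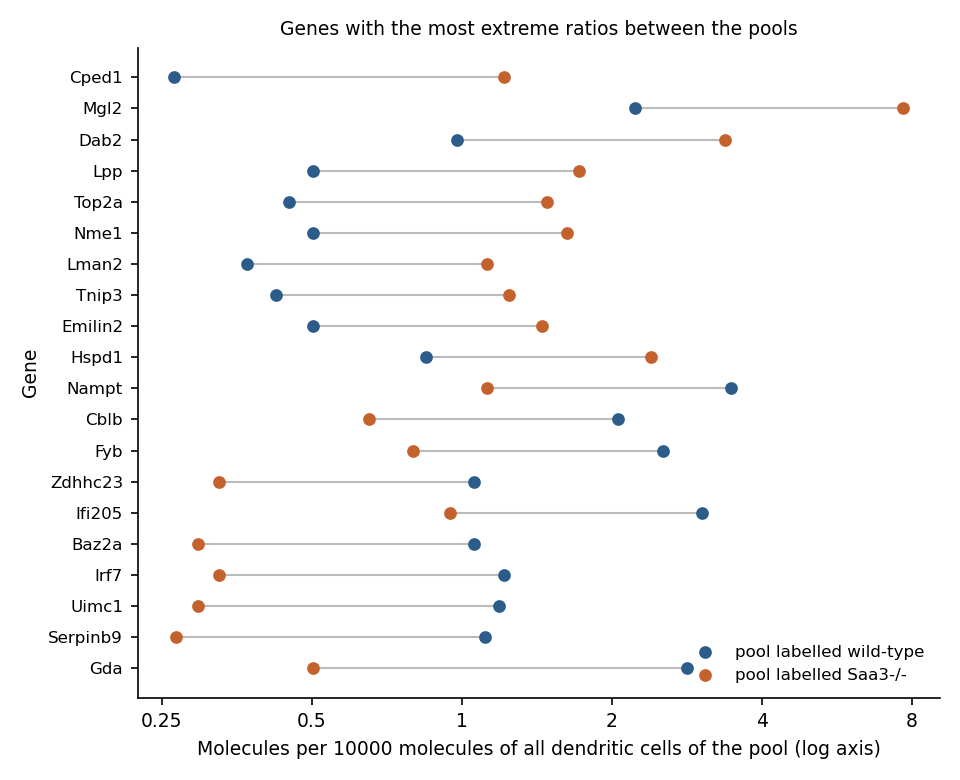
Level of the 20 genes named between the pools (x axis, molecules per 10000 on a log scale) in the dendritic cells of the pool labelled wild-type and of the pool labelled Saa3-/-, joined by a line. Gda stands at 2.83 and 0.503, Irf7 at 1.22 and 0.326, Mgl2 at 2.22 and 7.69 and Top2a at 0.450 and 1.48.

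Cell-cycle genes were higher in the pool labelled Saa3-/-. The list's median log2 ratio was 0.94 over 13 genes, 6 of them past 2-fold higher and 0 lower, beside 5.51% and 5.98% of all genes. The list summed to 27.2 (25.5 to 28.9) and 37.8 (35.7 to 39.9) per 10000, and single cells ran from 2.17 over a median of 19.8 to 124 in the pool labelled wild-type and from 5.74 over 25.1 to 148 in the other. The cells overlapped over nearly the whole range. Mki67, a marker of dividing cells, gave 33 molecules in 10 of 40 cells and 60 in 9 of 36, which is 25% of cells in each pool, beside 16.9% and 16.0% of T cells. Top2a, the topoisomerase of dividing cells, gave 17 molecules in 5 cells and 50 in 7, a log2 ratio of 1.69 (0.90 to 2.61). In the Xcr1/Clec9a cells of the pool labelled Saa3-/- a single cell held all 21 Top2a molecules, and the highest cell 20 of 23 Mki67 molecules. Hmgb2, Tuba1b and Tubb5, a chromatin protein and tubulins that dividing cells need in quantity, were more widely spread, with 61, 132 and 94 molecules in 27, 30 and 27 cells against 113, 216 and 143 in 28, 29 and 25. Within Xcr1/Clec9a cells the median was 0.58 over 9 genes, 8 of them higher, and within Cd209a cells, where 4 cells stand against 13, 1.57 over 6. The median in Cd209a cells was 1.38 with the 1 gene at 0 in a pool held at its bound.

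Maturation genes had a median log2 ratio of -0.14 over 25 genes in all members. Of these 8 were past 2-fold lower and 1 higher in the pool labelled Saa3-/-, beside 5.98% lower and 5.51% higher of all genes. Ccr7/Fscn1 cells were 5 there against 12. Within Ccr7/Fscn1 cells their median was 0.38 over 21 genes, 12 of them higher. Medians in all members were -0.04 for the 15 genes of the general dendritic list and -0.14 for the 15 class II genes. H2-DMb2, a chain of the class II peptide editor, was at 58 and 104 molecules, a log2 ratio of 1.00, and H2-Ob, a chain of its inhibitor, at 95 and 49, a log2 ratio of -0.79. Medians were -0.04 for 9 costimulation genes, 0.41 for 15 inflammatory genes, -0.33 for 8 genes of pattern recognition, 0.25 for 22 growth and homing receptors and 0.17 for 18 stress genes of dissociation. The inflammatory list had 4 of 15 genes past 2-fold higher and 4 lower, beside the same 5.51% and 5.98% of all genes. Its median therefore does not describe a common direction.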

How the data were processed

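Counts of deduplicated molecules per gene and cell were deposited by the authors in 2 tables, 1 per sample tag. They were made with the BD Rhapsody WTA Analysis Pipeline 1.11.1, GRCm38 and GENCODE mouse release 19, per the file headers and the submitters' processing notes. The tag calls listed 2401 cells, of which 647 were undetermined and 11 multiplets, and neither kind is in the 2 tables. No doublet caller was run.

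The members and gene lists were chosen with earlier results of these data known. Levels are molecules per 10000 molecules of the summed cells. Log2 ratios were computed with 0.5 molecule added, and a gene was called past 2-fold, with no test, from at least 50 molecules between pools and 20 between subsets or for lists. Genes at 0 in a group were given as bounds against 3 molecules over that group. Shares carry exact Clopper-Pearson intervals, levels exact Poisson intervals and ratios exact conditional intervals. PCR and capture are not covered by them.

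Between pools, the genes named are the 10 highest and 10 lowest ratios among genes found in at least 10 members with at most 50% of molecules in 1 cell. Between subsets they are the 12 highest and 12 lowest by the smaller ratio, found in at least 5 cells of the higher subset in each pool. With 4 Cd209a cells in the pool labelled wild-type 0 genes could meet that, so 4 cells were accepted there after the values were seen, and 35 genes qualified. Members of the lists and Saa3 are named too. Scripts were tested on simulated data. Python 3.11.15 with numpy 2.4.6, pandas 2.3.3 and scipy 1.17.1 was used, and gene positions are those of GENCODE mouse release 21. The insert of the AAV8 vector is not reported here.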

Additional observations from a re-analysis of the deposited data

Results flagged for a closer look

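For 5 lists the median log2 ratio of Xcr1/Clec9a over Cd209a cells had opposite signs in the pools. The difference was not tested, and only 4 Cd209a cells stand behind the pool labelled wild-type. The class II list had -0.20 there and 0.094 in the pool labelled Saa3-/-. The lipid-handling list had 0.69 and -0.39, and the cell-cycle list 0.94 and -0.22. The macrophage markers had 0.10 and -1.09, and the fibroblast markers 0.62 and -0.053.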

How the results depend on the processing

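No paired analysis was possible because each genotype is 1 pool and no test was made. Of the main results set against an alternative, 145 values stayed within their counting interval or within 1.5 times and 29 moved, some list medians across 0. Thinned to 2000 molecules, the dendritic cells were 2.70% and 2.63% of the cells, Xcr1/Clec9a cells 17.9% of the members in the pool labelled wild-type, and 5 genes were past 2-fold higher and 11 lower between pools. Without the C1q limit Xcr1/Clec9a cells were 36.1% of the members in that pool. Removing members with genes of another lineage left 1.20% and 1.09%. The counts of genes higher and lower between pools were 293 and 318 from 20 molecules, 25 and 32 from 100 molecules, 33 and 16 in Cd209a cells only, and 22 and 44 in Xcr1/Clec9a cells only. These smaller counts come from fewer genes tested or fewer cells. With each subset weighing the same, 103 were higher, and 89 of the 158 genes kept their call while 6 had the opposite sign. With each cell weighing the same 101 kept it.

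In Cd209a cells only, list medians were -0.052 for type 1 genes, -1.13 for type 2 genes, 0.45 for class I genes, 0.69 for lipid-handling genes and -0.33 for growth and homing receptors. With each subset weighing the same the type 2 median was -0.50. With each cell weighing the same the inflammatory median was -0.29. Between subsets in both pools, 190 genes were higher and 180 lower from 10 molecules, 31 and 20 from 50 molecules, and 136 were lower with no monocyte limit, which kept 59 of the 100 and 53 of the 80 calls. The cause of these moves was not tested otherwise. Dropping the monocyte or C1q limit, weighing the subsets equally, taking Xcr1/Clec9a cells alone and leaving out members led by other markers were chosen after seeing the data. Batf3, Irf4 and Tlr3 gave few molecules in any subset, and low depth and low expression cannot be told apart for them.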

Other observations

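Marker lists of other cell types were also compared between the pools over all dendritic cells. As a log2 ratio with the Saa3-/- label on top, the median was 0.95 for 5 smooth muscle genes, with 1 cell at 194 per 10000, and 0.43 for 5 monocyte genes. It was -0.52 for 4 mast cell genes, 0.11 for 7 fibroblast genes, 0.10 for 11 macrophage genes, 0.05 for 3 T cell genes and 0.13 for 2 B cell genes. The 2 plasmacytoid genes had a median of -0.36, and the plasma cell and endothelial lists, with 1 gene each, had -0.01 and 0.67. No gene of the natural killer and neutrophil lists reached 20 molecules.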
